A study of Homo sapiens with 4 samples.

Results

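The CDK inhibitor genes are the 8 genes CDKN1A, CDKN1B, CDKN1C, CDKN2A, CDKN2B, CDKN2C, CDKN2D and CDKN3, taken as a family by symbol, out of 64252 genes in the count table. They were examined in RNA-seq libraries labelled NB4, a promyelocytic leukemia cell line with the PML-RARa fusion. Cells had received 8 μM dBET1 for 24 h (2 libraries) or DMSO, the solvent, for 24 h (2 libraries). dBET1 is a small molecule that links a ligand of the BET bromodomain proteins to a ligand of CRBN, the substrate adaptor of a ubiquitin ligase, so that the bound proteins are marked for degradation. The comparison addressed how the transcripts of these genes differed between treated and solvent-treated cells. The labels do not say whether the libraries of a group came from separate cultures, and the study's general statement on repeated experiments does not name the sequencing, for which 2 libraries per group were used here. The p-values therefore measure the spread between these libraries, which may be technical.

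CDK inhibitors are small proteins that hold cyclin-dependent kinases in check. The Cip/Kip proteins p21 (CDKN1A), p27 (CDKN1B) and p57 (CDKN1C) bind complexes of cyclins with CDKs and restrain cyclin E-CDK2 and cyclin A-CDK2 above all. The INK4 proteins p16 (CDKN2A), p15 (CDKN2B), p18 (CDKN2C) and p19 (CDKN2D) bind CDK4 and CDK6 alone and keep the D-type cyclins from them, so that the pocket proteins stay unphosphorylated and E2F targets stay off. CDKN3 is no stoichiometric inhibitor of this kind but a phosphatase that removes the activating phosphate from CDK2 and CDK1, and its transcript peaks in late cell cycle. In blood cells p21 and p27 are known for accompanying cell cycle exit during differentiation, and CDKN2A and CDKN2B lie side by side in a region of chromosome 9 that is often lost in leukemias.

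Totals ran from 28019956 to 34685645 counts per library, and 17971 genes passed the filter on low counts. A floor of 3 counts was worth 0.0919 to 0.107 CPM, the usual scaling of counts to library size, here with TMM factors. The markers went against the label. Of 5 promyelocyte granule genes, ELANE and CTSG were at 0 in every library and MPO at 0 in both DMSO libraries, and the 5 genes together held 17 and 15 counts after DMSO and 55 and 25 after dBET1. All 10 erythroid genes on the marker list passed the filter, summing to 7292 and 8045 CPM with DMSO and to 4550 and 4545 CPM with dBET1. At the threshold given below, 9 of the 10 were called lower after dBET1, where 27.6% of all tested genes were lower. The 6 myeloid surface and monocyte genes summed to 30.3 to 32.4 CPM in every library. Of these, 3 were called higher and 1 lower after dBET1, where 28.0% of all tested genes were higher and 27.6% lower. ITGAM and CSF1R passed the filter only with the dBET1 libraries counted, so their part in this count carries little weight. ITGAM went from 22 and 9 counts to 170 and 152, CSF1R from 3 and 4 to 17 and 12 and CD14 from 18 and 14 to 27 and 48, while LYZ went from 600 and 489 to 323 and 345. Lymphoid genes summed to 1.87 to 2.46 CPM. The part of these marker shifts in the results was not tested, and in bulk RNA fewer cells of a type and less RNA per cell cannot be told apart.

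Of the 8 genes, CDKN1A, CDKN1B, CDKN1C, CDKN2C, CDKN2D and CDKN3 passed the filter, and CDKN2A and CDKN2B had 0 counts in all 4 libraries. At an adjusted p under 0.05 in the quasi-likelihood test of edgeR, adjusted over all tested genes by the Benjamini-Hochberg method, 3 of the 6 were called: CDKN1A and CDKN3 rose and CDKN1C fell. The same rule called 55.6% of all tested genes, with 28.0% higher and 27.6% lower, so 3 of 6 is close to the share of the whole table. CDKN1A alone of the 6 also changed by more than 1 on the log2 scale, against 25.4% of all tested genes. With library totals in place of TMM factors, the median log2 fold change of all genes moved from 0.05 to 0.26 and the higher share of the calls from 50.4% to 65.2%, so small changes in either direction are read against that shift.

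The 250 bases before the RefSeq start of 4 members are shown here to set the gene that changed most beside CDKN3, which rose less, and CDKN1B and CDKN2C, which were not called. The RefSeq table (GRCh38.p14) held 10 starts for 7 of the 8 genes, and CDKN1C has no entry in it. The windows are chr6:36678464-36678713 for CDKN1A, chr12:12717118-12717367 for CDKN1B, chr1:50968456-50968705 for CDKN2C (1 of its 3 starts) and chr14:54396757-54397006 for CDKN3, all on the plus strand. Capitals mark matches, on either strand, to the GC box GGGCGG, the CCAAT box CCAAT, the CHR element TTTGAA, the E-box CACGTG, the TATA box TATAAA, the E2F site TTTGGCGC and the EGR site GCGTGGGCG.
CDKN1A: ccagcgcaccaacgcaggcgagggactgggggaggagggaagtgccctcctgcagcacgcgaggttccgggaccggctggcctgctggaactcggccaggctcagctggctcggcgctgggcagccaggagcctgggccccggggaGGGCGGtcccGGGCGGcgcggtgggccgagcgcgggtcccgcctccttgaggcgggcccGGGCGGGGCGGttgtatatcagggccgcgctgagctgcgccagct
CDKN1B: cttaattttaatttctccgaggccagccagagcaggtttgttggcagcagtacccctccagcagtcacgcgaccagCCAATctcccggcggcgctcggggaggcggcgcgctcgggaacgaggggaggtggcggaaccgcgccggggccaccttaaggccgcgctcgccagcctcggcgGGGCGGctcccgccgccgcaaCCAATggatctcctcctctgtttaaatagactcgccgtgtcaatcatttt
CDKN2C: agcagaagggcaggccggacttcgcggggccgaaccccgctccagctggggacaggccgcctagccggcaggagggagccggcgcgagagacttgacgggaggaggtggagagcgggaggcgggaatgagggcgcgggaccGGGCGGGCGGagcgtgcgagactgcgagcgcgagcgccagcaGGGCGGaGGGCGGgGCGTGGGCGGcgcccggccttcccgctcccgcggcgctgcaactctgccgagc
CDKN3: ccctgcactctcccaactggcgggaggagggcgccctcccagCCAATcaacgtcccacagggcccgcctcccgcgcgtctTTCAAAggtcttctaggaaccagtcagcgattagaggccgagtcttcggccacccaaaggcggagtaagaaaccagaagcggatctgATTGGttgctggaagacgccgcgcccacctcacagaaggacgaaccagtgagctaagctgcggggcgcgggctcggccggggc

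The CDKN1A window held 4 GC boxes, beginning 104, 94, 45 and 40 bases before the start, of which the last pair overlaps by a single base, and no match to the other 6 motifs. The CDKN2C window held 5 GC boxes, the first pair overlapping, and an EGR site that overlaps the last of them. The CDKN1B window held 1 GC box and 2 CCAAT boxes. The CDKN3 window had no GC box but held 2 CCAAT boxes and 1 CHR element on the reverse strand 170 bases before the start, the element through which many late cell cycle genes are known to be repressed outside that phase. Among 35116 promoter windows of the same length, 42.6% held a GC box, 32.0% a CCAAT box, 13.3% the CHR letters, 6.34% the E-box, 10.7% the TATA box, 0.55% the E2F letters and 0.72% the EGR letters. The windows of CDKN1A and CDKN2C were 76.4% and 77.2% G or C, against a median of 58.0% over all windows. The other CDKN2C windows were 45.6% and 48.8% G or C, each with 1 E-box and the latter also with 1 GC box and 1 CCAAT box, so the window shown does not stand for all starts of that gene. These matches describe the letters of the windows and were not tested against the changes in expression. The windows shown follow RefSeq starts, which differ from the annotated gene starts given below. The annotated CDKN1A start, at position 36676460, lies before its window, and that of CDKN3, at position 54396849, lies inside its window.

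CDKN1A (ENSG00000124762, hg38 chr6:36676460-36687337, plus strand) encodes p21, a CDK inhibitor known for stopping the cell cycle after DNA damage. DMSO left it at 44 and 41 counts, and the dBET1 libraries held 370 and 420. In CPM this was 1.35 and 1.46 with DMSO and 12.3 and 13.8 with dBET1, a mean of 1.40 ± 0.0782 against 13.0 ± 1.01 (SD, n = 2 each). Both dBET1 libraries lay far above both DMSO libraries. The log2 fold change was 3.21 (SE 0.21), a 9.28-fold rise with a 95% interval of 6.63- to 13.0-fold (adjusted p = 2.21e-05, edgeR). Of all tested genes, 583 or 3.24% had a larger log2 fold change. CDKN1A was called under all 11 alternative settings, with log2 fold changes of 3.12 to 3.42.

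CDKN1B (ENSG00000111276, chr12:12685498-12722369, plus strand) encodes p27, which binds and inhibits cyclin E-CDK2 and is removed by the SKP2 ubiquitin ligase. Its counts were 1055 and 899 with DMSO and 979 and 1120 with dBET1, or 32.3, 32.0, 32.6 and 36.7 CPM. The dBET1 libraries were both above the DMSO libraries, but dBET1 replicate 1 by a margin smaller than the spread within the dBET1 pair. The log2 fold change was 0.11 (95% interval -0.14 to 0.35, adjusted p = 0.41, edgeR), so that a change beyond 1.28-fold upward lay outside the interval. With library totals the value was 0.32 and was called (adjusted p = 0.0371, edgeR), with the median of all genes at 0.26 on that scale. CDKN1B overlaps GPR19 on the opposite strand, which had at most 71 counts in a library, and the strand setting of the counting is not given in the sources used here.

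CDKN1C (ENSG00000129757, chr11:2883213-2885775, minus strand) encodes p57, an imprinted inhibitor known for holding stem cells in quiescence. Its DMSO libraries held 112 and 130 counts and its dBET1 libraries 65 and 69, or 3.43 and 4.63 CPM against 2.17 and 2.26 CPM. Both dBET1 libraries were below both DMSO libraries, and the DMSO pair was spread more widely than the dBET1 pair. The log2 fold change was -0.86 (SE 0.27, 95% interval -1.48 to -0.24, adjusted p = 0.0259, edgeR). The direction held in all 11 alternatives and the call in 5 of them. Without DMSO replicate 2, the higher of that pair, the value was -0.66 (adjusted p = 0.0760), without dBET1 replicate 1 it was -0.84 (adjusted p = 0.0973) and without dBET1 replicate 2 it was -0.91 (adjusted p = 0.0753, all edgeR).

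**Figure D1:**
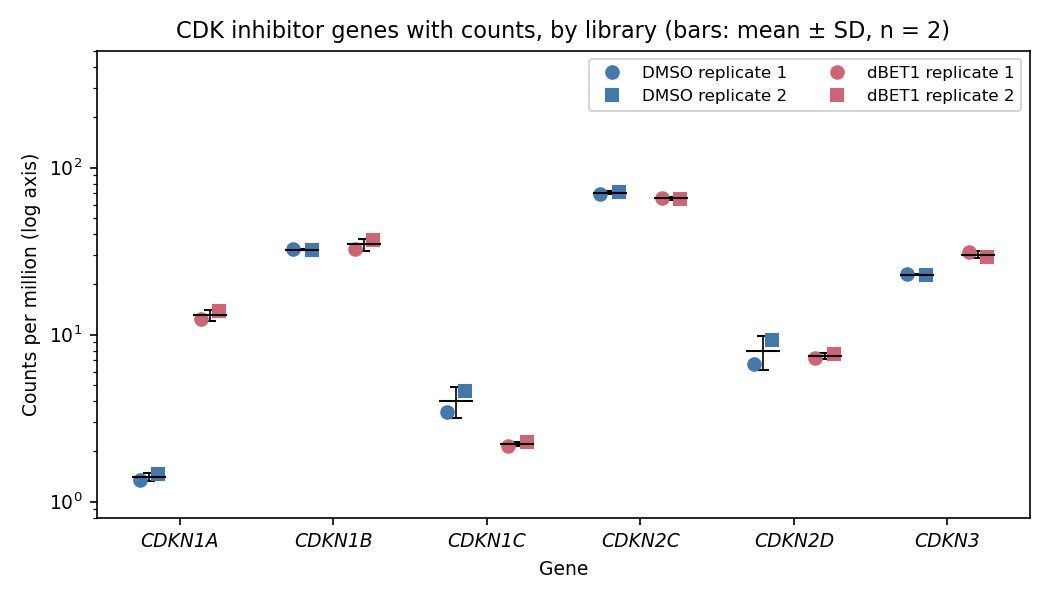
CPM of the 6 CDK inhibitor genes with counts (log axis) in each DMSO and dBET1 library, with black bars for the mean and SD of 2 libraries. The CDKN1A points move from 1.35 and 1.46 to 12.3 and 13.8, the CDKN2D points of both groups overlap, and CDKN2A and CDKN2B, at 0, are not drawn.

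Among the INK4 genes, CDKN2C (ENSG00000123080, chr1:50960745-50974634, plus strand) encodes p18, which binds CDK6 and CDK4. Counts were 2267 and 2017 after DMSO and 1985 and 1970 after dBET1, or 69.5, 71.8, 66.1 and 64.5 CPM. The dBET1 libraries were both lower, by a few CPM. The log2 fold change was -0.11 (95% interval -0.30 to 0.08, adjusted p = 0.27, edgeR). CDKN2D (ENSG00000129355, chr19:10566460-10569059, minus strand) encodes p19. Its counts were 218 and 261 with DMSO and 216 and 233 with dBET1, or 6.68, 9.29, 7.20 and 7.63 CPM. The dBET1 values of CDKN2D lay between its DMSO values. The log2 fold change was -0.10 (95% interval -0.60 to 0.39, adjusted p = 0.70, edgeR). Both genes turned to a small positive value with library totals, 0.10 for CDKN2C and 0.11 for CDKN2D, still below the median of all genes on that scale, and CDKN2D was 0.12 without DMSO replicate 2. Neither was called under any of the 11 alternatives.

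CDKN2A (ENSG00000147889, chr9:21967752-21995301, minus strand) encodes p16 and, from another first exon, the protein ARF, and CDKN2B (ENSG00000147883, chr9:22002903-22009305, minus strand) encodes p15. Neither gene had a count in any library, which allows up to 3 counts, or 0.0919 to 0.107 CPM, in each. No fold change was computed. CDKN2B-AS1, the antisense RNA that overlaps both, was at 0 as well. The genes around them were also without counts. Between FOCAD, which ends at position 20995955 of chromosome 9 and had 22 to 35 counts per library, and CAAP1, which starts at position 26840685 and had 319 to 456 counts, lay 25 protein-coding genes over 5.84 Mb, all at 0 in all 4 libraries. They were 16 interferon genes, CDKN2A, CDKN2B, HACD4, KLHL9, MTAP, DMRTA1, ELAVL2, IZUMO3 and TUSC1. MTAP encodes the phosphorylase that salvages methionine from polyamine synthesis, and it is a gene most cells express. Of 77 genes of any type in the interval, 75 were at 0 and the others, the processed pseudogenes KHSRPP1 and CLIC4P1, had at most 3 counts. Over chromosomes 1 to 22 and X, 3919 of 19493 protein-coding genes (20.1%) were at 0 in every library, and among 1892 runs of such neighbours this one ranked 6 by number of genes and 13 by length. From counts alone, silent genes and DNA that is absent cannot be told apart.

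**Figure D2:**
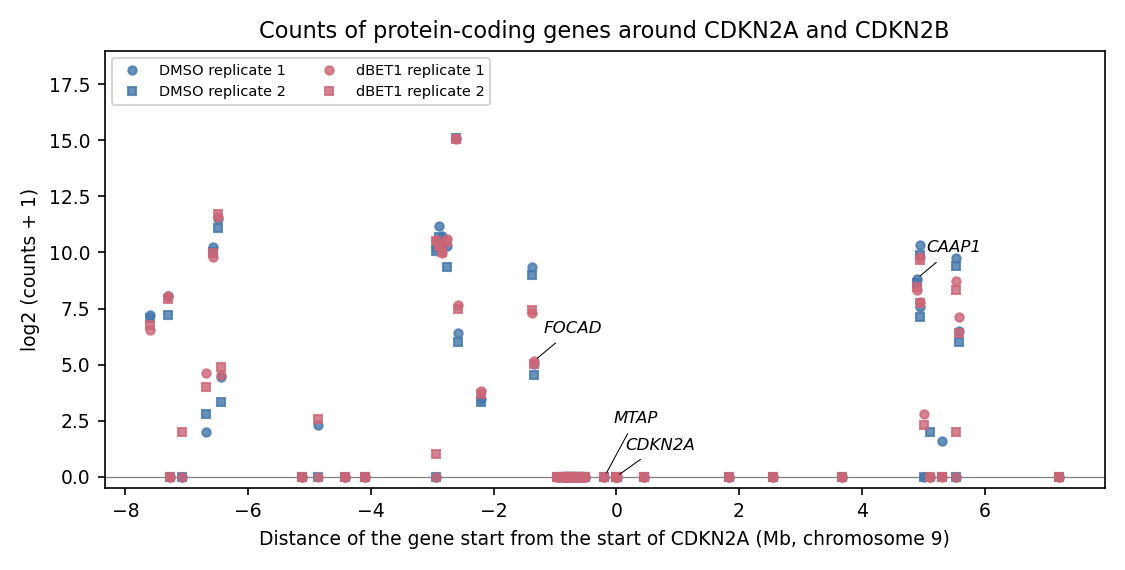
Counts of protein-coding genes on the log2 (counts + 1) scale against the distance of each gene's start from that of CDKN2A, in Mb along chromosome 9, for the 4 libraries. The 25 genes between FOCAD and CAAP1, MTAP and CDKN2A among them, lie on the line at 0 in both conditions.

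CDKN3 (ENSG00000100526, chr14:54396849-54420218, plus strand) encodes the phosphatase that acts on the activating threonine of CDK2. Its counts were 747 and 640 after DMSO and 932 and 886 after dBET1, or 22.9 and 22.8 CPM against 31.1 and 29.0 CPM. Both dBET1 libraries were above the DMSO libraries, and the spread within each pair was smaller than the gap between the groups. The log2 fold change was 0.40 (SE 0.11, 95% interval 0.15 to 0.64, a 1.32-fold rise, adjusted p = 0.0153, edgeR). The direction held in all 11 alternatives and the call in 7. Without dBET1 replicate 1 the value was 0.34 (adjusted p = 0.163, edgeR) and without dBET1 replicate 2 it was 0.43 (adjusted p = 0.0754, edgeR).

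**Figure D3:**
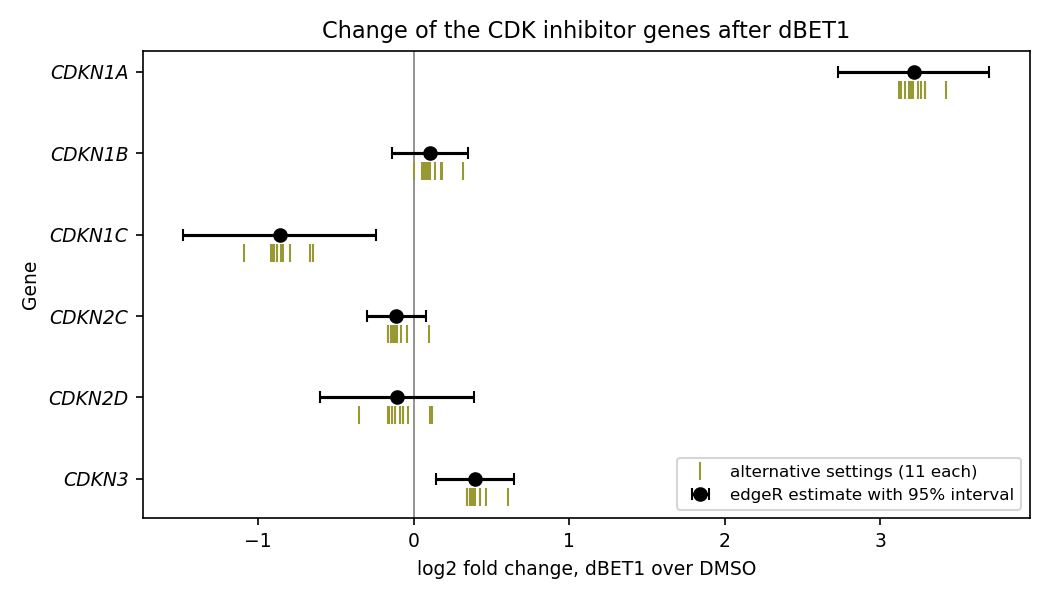
log2 fold change, dBET1 over DMSO, of the 6 tested CDK inhibitor genes, with points and bars for the edgeR estimate and its 95% interval and ticks for the 11 alternative settings. CDKN1A lies between 3.12 and 3.42 under every setting, whereas the ticks of CDKN2C and CDKN2D fall on both sides of 0.

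Levels were set between genes per kilobase of merged exon length, as CPM per kb. With DMSO, CDKN2C was highest at 23.4, then CDKN3 at 12.5, CDKN2D at 5.30, CDKN1B at 3.47, CDKN1C at 1.62 and CDKN1A at 0.469, and no neighbours in this order overlapped between the 2 libraries. With dBET1 the order was CDKN2C at 21.6, CDKN3 at 16.4, CDKN2D at 4.93, CDKN1A at 4.35, CDKN1B at 3.74 and CDKN1C at 0.892 CPM per kb. CDKN1A thus went from the last place to the fourth. Its dBET1 libraries, at 4.11 and 4.59, sat close to the nearest values of CDKN1B (3.96) and CDKN2D (4.78), so these 3 neighbours are separated by less than the spread within their own pairs of libraries and their order is not resolved. Lengths matter here: with the longest transcript in place of merged exons, the order with DMSO kept 4 of 6 places, CDKN1B and CDKN2D trading theirs, and with dBET1 CDKN3 came before CDKN2C.

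Summed over the family, the level was 45.3 and 48.2 CPM per kb with DMSO and 52.2 and 51.8 with dBET1. CDKN1A made up 0.993% and 1.01% of this sum with DMSO and 7.88% and 8.87% with dBET1. CDKN2C was 50.8% and 49.3% of the sum with DMSO and 42.0% and 41.3% with dBET1, a share and not a level, and CDKN3 held 27.6% and 25.8% with DMSO and 32.5% and 30.6% with dBET1. Set against their kinases, the transcripts of the INK4 genes were 0.263 and 0.273 of the summed CDK4 and CDK6 level per kb with DMSO and 0.458 and 0.472 with dBET1. The transcripts of the Cip/Kip genes were 0.139 and 0.166 of the CDK2 level with DMSO and 0.358 and 0.406 with dBET1. The groups did not overlap in either ratio, and neither ratio was tested. The INK4 sum itself was 27.5 and 30.0 CPM per kb with DMSO and 26.7 and 26.5 with dBET1. CDK4 and CDK6 together went from 104 and 110 to 58.3 and 56.0. The Cip/Kip sum was 5.33 and 5.81 CPM per kb with DMSO and 8.51 and 9.47 with dBET1. CDK2 went from 38.3 and 34.9 to 23.8 and 23.3. Sums, shares and ratios rest on merged exon lengths, which for CDKN1B is 9255 bases against 4335 in its longest transcript.

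**Figure D4:**
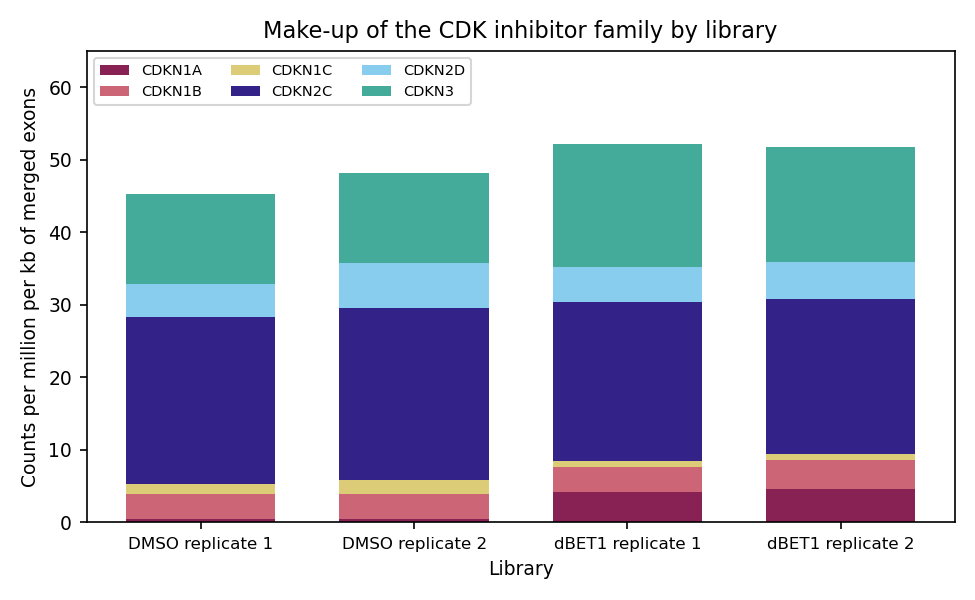
Stacked level of the CDK inhibitor genes in CPM per kb of merged exons, one bar per library. The CDKN1A layer at the foot grows from 0.993% and 1.01% of the bar with DMSO to 7.88% and 8.87% with dBET1, and CDKN2C and CDKN3 are the thickest layers in all 4 libraries.

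The kinases and cyclins that the inhibitors bind were mostly lower after dBET1. Of 13 such genes 12 were tested, 8 were lower and 1 was higher, where 27.6% of all tested genes were lower and 28.0% higher, and the median log2 fold change was -0.42 against 0.05 over all tested genes. CCND1, the cyclin that activates CDK4 and CDK6, fell by 1.46 on the log2 scale (SE 0.0861, adjusted p = 1.55e-05), from 120 and 115 CPM to 41.1 and 44.3 CPM. CDK4 fell by 0.98, CCNE1 by 0.99, CCNA2 by 0.78 and CDK2 by 0.64. CCND3, CDK6 and CCNB1 fell by 0.36 to 0.44. CCND2 rose by 0.47 (adjusted p = 0.00506), and CDK1, CCNE2 and CCNB2 were not called, at -0.04, -0.05 and 0.23. CCNA1 had no counts. The lower count of this list was 6 with library totals and 7 with no filter on low counts. The higher count of this list was 2 with library totals, with at least 10 counts asked of every sample and without DMSO replicate 1. Of 8 genes that set or remove the phosphates of CDKs, 2 were higher, close to the 28.0% of all tested genes, and 4 lower (all tested genes 27.6%). CDC25A, the phosphatase that activates CDK2, fell by 1.23, PKMYT1, an inhibitory kinase, by 0.93 and CCNH, the cyclin of the CDK-activating kinase, by 0.60, whereas CDC25B and CDC25C rose by 0.71 and 0.95.

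Genes for the turnover of p21, p27 and p57 protein were lower in 10 of 13 cases and higher in 1, with a median of -0.48, where 27.6% of all tested genes were lower and 28.0% higher. SKP2, the F-box protein that marks p27 and p21 for degradation, fell by 1.16 (SE 0.0876, adjusted p = 3.77e-05). DDB1, part of the CRL4 ligase that degrades p21 in S phase, fell by 0.83, and PSME3, the proteasome activator that degrades p21 without ubiquitin, fell by 1.02. RNF123, a ligase for p27 outside the nucleus, rose by 0.71 (adjusted p = 0.000461). The higher count was 3 with library totals and with at least 10 counts asked of every sample, and 2 with counts divided by 2 and without DMSO replicate 1. The lower count was 7 with library totals and 8 with at least 10 counts asked of every sample. Protein levels were not measured in these files.

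The pocket proteins, through which INK4 proteins act, were called higher for RBL2 (0.49, adjusted p = 0.00581) and RB1 (0.30, adjusted p = 0.0405), and RBL1 was not called at -0.17. Neither call was stable over the alternatives: 0 of the 3 genes were called with no filter on low counts, and 1 was called with DESeq2 and without DMSO replicate 2, dBET1 replicate 1 or dBET1 replicate 2.

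Transcription factors known to raise CDK inhibitor genes were higher in 10 of 17 tested genes and lower in 2, with a median of 0.32, where 28.0% of all tested genes were higher and 27.6% lower. The higher count includes CEBPA (5 and 7 counts with DMSO, 58 and 54 with dBET1) and KLF4 (9 and 14, then 39 and 40). Both passed the filter only with the dBET1 libraries counted, so their calls carry little weight. The higher count was 7 with DESeq2, 8 with no filter and 12 with library totals. EGR1, an immediate early factor, rose by 3.56, from 29.4 and 31.4 CPM to 371 and 348 CPM (adjusted p = 9.67e-07). FOXO3, which drives CDKN1B, rose by 1.39, and KLF6, which raises CDKN1A, by 1.42. ETS2 and SP1 fell by 0.60 and 0.39, and 1 gene was lower with library totals, with no filter and without either dBET1 replicate. Repressors were lower in 6 of 12 tested genes and higher in 3, a share near the 28.0% of all tested genes, with a median of -0.34 (27.6% of all tested genes were lower). MYC, which represses CDKN1A, CDKN1B and CDKN2B in other settings, fell by 0.73 (adjusted p = 0.000101, edgeR). TFAP4, another known repressor of CDKN1A, fell by 1.03 and EED, a subunit of Polycomb complex PRC2, by 1.22. CDKN2A and CDKN2B had 0 counts in every library, so repressors of these genes had no measured change to be set beside. CBX7 rose by 1.16. The others counted as higher, GFI1 (3 and 0 counts with DMSO, 13 and 41 with dBET1) and TBX2 (0 and 0, then 14 and 13), passed the filter through the dBET1 libraries alone, so their calls carry little weight. The higher count was 1 with at least 10 counts asked of every sample, with counts divided by 2 and without dBET1 replicate 2, and 2 without dBET1 replicate 1.

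CDKN3 was set beside 25 other genes of G2 and M phase. Of these, 7 were higher, the same 28.0% as over all tested genes, 4 were lower (all tested genes 27.6%) and 14 were not called, with a median of 0.10. HMMR, CDC25C and CENPE rose by 0.64, 0.95 and 0.55, and PLK1, CKS2 and CCNB1 fell by 0.65, 0.68 and 0.44. The value of CDKN3, 0.40, lay above the median and within the range of this list. The count depended on the setting, as 14 of the genes were called higher with library totals, 11 with at least 10 counts asked of every sample, 4 with DESeq2, 2 with no filter, 4 without dBET1 replicate 1 and 3 without dBET1 replicate 2. DESeq2 called 5 lower, and without DMSO replicate 2 there were 5 higher and 7 lower, so the balance of the list was not stable.

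**Figure D5:**
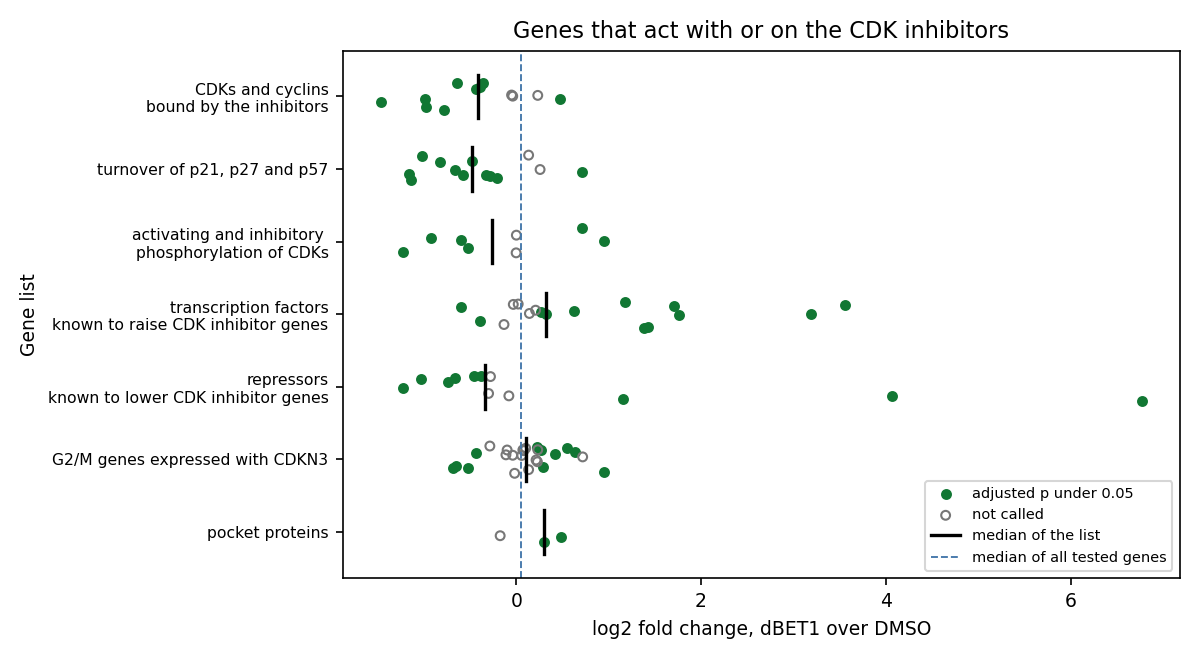
log2 fold change, dBET1 over DMSO, of the tested genes of the 7 lists described above, without the marker lists, with filled points for an adjusted p under 0.05, black ticks for the list medians and a dashed line for the median of all tested genes, 0.05. The kinase and cyclin list and the turnover list have medians of -0.42 and -0.48, and the place of the rightmost point, TBX2 with 0 counts in both DMSO libraries, depends on the prior count of the fit.

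Within 500 kb of the CDKN1A start, 12 genes were tested, 6 were higher and 4 lower, where 28.0% of all tested genes were higher and 27.6% lower. PI16 went from 16 and 6 counts to 415 and 491 (log2 fold change 5.36, adjusted p = 1.69e-05, edgeR) and SRSF3, a splicing factor, fell by 0.72. PI16, BRPF3-AS1 (10 and 10 counts with DMSO) and FGD2 (7 and 5) passed the filter only with the dBET1 libraries counted. HTR7P1 near CDKN1B and C19orf38 and PPAN-P2RY11 near CDKN2D also passed in this way. The higher counts around CDKN1A and CDKN2D are therefore not read as a local excess. Around CDKN1B, 9 of 16 tested genes were higher, HTR7P1 alone among them passing in this way, and 1, DDX47, was lower. Whether this is a local excess was not tested. APOLD1, which starts 40.4 kb beyond the annotated CDKN1B start on the same strand, went from 35 and 26 counts to 273 and 309. That annotated start, at position 12685498, is not the CDKN1B start whose window is shown above. The window ends at position 12717367, nearer to APOLD1. APOLD1 rose by 3.26 (SE 0.24, adjusted p = 3.27e-05, edgeR), while CDKN1B, at 0.11, was not called. Around CDKN1C, 2 of 8 tested genes were higher and 3 lower. PHLDA2, which is imprinted like CDKN1C, fell by 1.10 (adjusted p = 0.000946), and the antisense RNA KCNQ1OT1 of the same imprinted region was not called, at 0.22. FAF1 starts on the other strand, 0.478 kb from the annotated CDKN2C start at position 50960745. The CDKN2C window shown above begins further on, at position 50968456. FAF1 fell by 0.87 (adjusted p = 8.01e-05, edgeR), and RNF11 rose by 0.57 (adjusted p = 0.00359, edgeR). Of 4 tested genes around CDKN2C, 1 was higher and 1 lower. Around CDKN2D, 5 of 38 tested genes were higher and 19 lower, and around CDKN3 1 of 4, GMFB, was lower. None of the 21 genes around CDKN2A passed the filter.

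The genes whose pattern over the 4 libraries lay nearest to that of a called CDK inhibitor gene were found by the Euclidean distance of centred log2 (CPM + 0.5) among 14884 genes with a symbol. For CDKN1A they were EVI5L (distance 0.171), APOLD1 (0.177) and ADARB1 (0.180). For CDKN1C they were STK11IP (0.0375), SLC18A2 (0.0437) and SSNA1 (0.0452), and for CDKN3 they were ETFRF1 (0.0140), ETV3 (0.0160) and RMDN1 (0.0208). With 4 libraries these distances mainly follow the size of the change and the split of the pairs.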

How the data were processed

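Paired-end RNA-seq of 4 libraries was used, mapped to dBET1 or DMSO by their labels. Reads were aligned by the authors with HISAT2 2.2.0 (hg38), abundances came from StringTie, and the deposited values are whole-number counts of each gene. How the counts were derived and the strand setting are not given in the sources used here, so overlapping and antisense genes can share counts. No column was left unused (0) and 0 rows named no gene. Counts were fitted with edgeR 4.0.16 in R 4.3.3 (filterByExpr, TMM, quasi-likelihood test on the group alone, Benjamini-Hochberg over 17971 genes). The DMSO and dBET1 pairs differed beyond sampling noise (chi-square per degree of freedom 23.6 and 8.14). Floors cover counting error only. Annotation was GENCODE v44, with 56105 identifiers found. The members and gene lists were chosen with earlier results of these data known. Genes named are all members, the 3 smallest p-values per list and direction, all kinases, cyclins, pocket and chromosome 9 genes listed, genes within 500 kb of a member and the 3 nearest patterns. The counts of GFI1 and TBX2 were chosen after their values were seen. CEBPA, KLF4 and the neighbours said to pass the filter only with the dBET1 libraries were also named after their values were seen. Some further results are not reported here. The scripts were tested on simulated data. The alternatives comprised DESeq2 1.42.0, edgeR with DESeq2 size factors, total counts, other count filters, counts divided by 2 (in case both reads of a pair were counted), a replicate block and each library left out.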

Additional observations from a re-analysis of the deposited data

How the results depend on the processing

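CDKN1A kept its direction and call under all 11 alternatives (log2 fold change 3.12 to 3.42). With total counts only, CDKN1B was 0.32 (now called, adjusted p = 0.0371), CDKN1C -0.65 (adjusted p = 0.0646), CDKN2C 0.10 and CDKN2D 0.11, both of the latter with the sign turned. That setting leaves out the TMM factors, and it moves the median of all genes to 0.26. With DESeq2, CDKN1C was -0.90 (adjusted p = 0.0777) and CDKN3 0.36 (adjusted p = 0.0575), and without a filter on low counts they were -0.91 (adjusted p = 0.0533) and 0.34 (adjusted p = 0.0588). Neither was then called, so that 1 CDK inhibitor gene was called in both settings. Leaving out 1 library at a time gave 0.01 to 0.18 for CDKN1B, which was not called in any of them, -1.09 to -0.66 for CDKN1C, -0.35 to 0.12 for CDKN2D, 0.34 to 0.43 for CDKN3 and 1 to 3 called members. CDKN2D turned sign without DMSO replicate 2 (0.12). The causes were not tested. With the longest transcript length, 4 of 6 members kept their place in the DMSO order. Genes called among all numbered 7202 to 10402 when a library was left out. Of 198 list counts recomputed, 167 stayed within 1.5 times, 11 moved higher and 20 lower. Same-numbered samples did not deviate together (correlation 0.0023 over 17971 genes). This single correlation cannot exclude that same-numbered libraries shared a culture or batch. With the replicate block, CDKN1A was 3.21, and no member changed its call. With 2 libraries per group, counts of 41 to 130 for CDKN1A and CDKN1C with DMSO limit the precision of their fold changes.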
